A study of Mus musculus with 22 samples.

Results

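Narrowing promoter regions were 581 of the 8777 H3K4me3 regions that held a protein-coding transcription start site (TSS) and a peak in all 10 H3K4me3 lists, out of 16244 consensus regions. They were chosen on the measured H3K4me3 length at 0 h and 24 h. A consensus region was the union of the 10 lists, merged where peaks touch, and its length in a list was the number of bp covered by peaks. A region was selected when both 24 h lists were shorter than both 0 h lists and the 0 h mean was at least 15% longer than the 24 h mean, so its lengths at these times are a description and not a test. The rule took 6.62% of the promoter regions, and the same rule reversed took 479 widening regions (5.46%). Leaving out 1 list changed the count to between 644 and 1049, with 1049 without 0 h replicate 1 and 875 without 24 h replicate 2. With fewer lists to keep apart, that part of the rule is looser by construction. The count was 1171 with lengths scaled by the median peak length of each list, and 226 when a difference of 25% was asked for. With peaks that reach the pooled median score it was 185 of 5491 promoter regions.

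The lists come from G1ER (G1E-ER4) cells, a subclone of a mouse erythroid progenitor line that lacks Gata1 and carries GATA1 joined to the hormone-binding part of the estrogen receptor (GATA1-ER). All cells were grown with SCF and EPO, and all groups carry the same transgene, so 1 clone stands for the cell type. Cells were taken before (0 h) or 2, 6, 12, and 24 h after β-estradiol, which activates GATA1-ER, with 2 lists per time point for H3K4me3 and for H3K27ac and 1 list at 0 h and at 24 h for CTCF. The study describes the replicates as independent experiments. The study used these cells to follow promoters whose genes are switched on or off.

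H3K4me3 is written at promoters by the SET1 and MLL complexes and removed by KDM5 demethylases. It usually covers the nucleosomes on either side of the TSS and reaches into the gene body, and CpG-rich DNA recruits part of the machinery that writes it. H3K27ac is placed by p300 and CBP at active promoters and enhancers. CTCF is a zinc finger protein that binds DNA and helps to anchor chromatin loops. When progenitors mature into red cells, the genes of heme synthesis and of the red cell membrane are switched on, while genes shared with mast cells and earlier progenitors are switched off.

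The H3K4me3 lists held 12925 to 14452 peaks, with the most at 0 h. The lists give peak positions and a score but no read counts, so the depth per library is unknown. No H3K4me3 peak was longer than 9200 bp. Of 11 erythroid markers, 9 had an H3K4me3 peak over a TSS in at least 8 of the 10 lists, and no peak was listed over those of Gata1 and Tal1. A TSS without a listed peak is not shown to lack the mark, and whether longer domains are missing from the lists was not tested. Of 5 mast cell markers, Kit, Ms4a2, Cpa3, and Hdc had one in 6 to 9 lists and Srgn in 0. Of 6 markers of other cell types, Pax6 had one in 9 lists and the other 5 in 0.

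Sequences are shown first because the bases that lost H3K4me3 differed in composition from those that kept it. Lost bases were covered in both 0 h lists and in neither 24 h list, and kept bases were covered in all 4 of these lists. For 7 of the named members, picked after their values were seen and shown where no exon is touched, 150 bases from the middle of the longest lost stretch are given, set in 4 of them beside 150 bases directly upstream of the TSS. The upstream stretch of Hif3a was left out by choice. Capitals mark CpG dinucleotides and the GATA motif, which here is AGATAA, its form that ends in G (AGATAG), or either with T as the first letter (TGATAA for one and TGATAG for the other), on either strand. All are from the GRCm38 (mm10) RefSeq genome, read 5′ to 3′ on the strand of the gene.

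Hif3a encodes a hypoxia-inducible factor subunit. Its lost stretch, centered 2996 bp upstream of the TSS in an intron of longer Hif3a transcripts, lies at chr7:17059600-17059749 (minus strand).
Hif3a lost: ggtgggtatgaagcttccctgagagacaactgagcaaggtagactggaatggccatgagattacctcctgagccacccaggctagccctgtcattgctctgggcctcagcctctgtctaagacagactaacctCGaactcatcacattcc
This stretch held 1 CpG and 0 GATA motifs.

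Il1rl1 encodes ST2, the IL-33 receptor of mast cells. Its upstream stretch lies at chr1:40429420-40429569 (plus strand) and its lost stretch, in an intron 4568 bp downstream of the TSS, at chr1:40434063-40434212.
Il1rl1 upstream: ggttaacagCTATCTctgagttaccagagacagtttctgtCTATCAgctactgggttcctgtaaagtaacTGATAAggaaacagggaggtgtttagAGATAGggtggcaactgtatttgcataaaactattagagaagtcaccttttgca
Il1rl1 lost: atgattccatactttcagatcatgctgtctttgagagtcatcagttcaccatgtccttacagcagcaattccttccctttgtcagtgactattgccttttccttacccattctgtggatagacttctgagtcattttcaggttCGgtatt
The upstream stretch held 4 GATA motifs and 0 CpG, and the lost stretch held 0 GATA motifs and 1 CpG.

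Ston2 encodes stonin 2, an endocytic adaptor. The TSS used is that of a short transcript, so its upstream stretch lies within longer ones, at chr12:91746085-91746234 (minus strand) and its lost stretch, in an intron 1654 bp downstream of that TSS, at chr12:91744355-91744504.
Ston2 upstream: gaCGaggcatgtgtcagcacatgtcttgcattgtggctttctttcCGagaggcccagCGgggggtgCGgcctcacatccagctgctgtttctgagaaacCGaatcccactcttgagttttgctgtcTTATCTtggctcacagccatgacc
Ston2 lost: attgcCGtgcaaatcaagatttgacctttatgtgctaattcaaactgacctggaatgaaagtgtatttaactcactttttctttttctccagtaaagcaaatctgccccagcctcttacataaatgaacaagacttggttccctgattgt
The upstream stretch held 5 CpG and 1 GATA motif, and the lost stretch 1 CpG.

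Flywch2 stands for a CpG-rich promoter with a short peak. Its upstream stretch lies at chr17:23786082-23786231 (minus strand) and its lost stretch, centered 248 bp upstream of the TSS and outside genes, at chr17:23786254-23786403.
Flywch2 upstream: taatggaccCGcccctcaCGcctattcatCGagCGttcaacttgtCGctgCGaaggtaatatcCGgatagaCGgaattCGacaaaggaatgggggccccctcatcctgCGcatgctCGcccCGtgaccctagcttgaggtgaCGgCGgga
Flywch2 lost: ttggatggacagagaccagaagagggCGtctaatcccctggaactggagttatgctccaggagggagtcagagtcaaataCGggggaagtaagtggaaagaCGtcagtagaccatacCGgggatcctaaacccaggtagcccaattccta
CpG numbered 14 in the upstream stretch and 4 in the lost stretch.

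Meis1, a homeobox partner of HOX proteins in progenitors, ran the other way from Ston2 and Flywch2 in CpG, as did Il1rl1. Its upstream stretch lies at chr11:19018986-19019135 (minus strand) and its lost stretch, centered 1045 bp upstream of the TSS and outside genes, at chr11:19019955-19020104.
Meis1 upstream: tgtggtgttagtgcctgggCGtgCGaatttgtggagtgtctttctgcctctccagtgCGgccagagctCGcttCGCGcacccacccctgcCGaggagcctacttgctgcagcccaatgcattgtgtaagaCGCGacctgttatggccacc
Meis1 lost: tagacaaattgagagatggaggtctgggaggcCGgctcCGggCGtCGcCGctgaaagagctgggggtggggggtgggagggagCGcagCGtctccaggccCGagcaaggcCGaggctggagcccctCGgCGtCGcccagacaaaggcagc
Here the lost stretch held more CpG (12) than the upstream stretch (9).

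In 2 members the lost stretch itself held a GATA motif. Rgs13, a regulator of G protein signaling in mast cells, lost bases around chr1:144176029-144176178 (minus strand), in an intron 1171 bp downstream of the TSS. Alox5, the 5-lipoxygenase of leukotriene synthesis, lost bases around chr6:116459575-116459724 (minus strand), in an intron 1374 bp downstream of the TSS.
Rgs13 lost: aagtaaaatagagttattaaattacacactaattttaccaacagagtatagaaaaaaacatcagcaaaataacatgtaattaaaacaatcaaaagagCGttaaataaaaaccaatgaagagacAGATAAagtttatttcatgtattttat
Alox5 lost: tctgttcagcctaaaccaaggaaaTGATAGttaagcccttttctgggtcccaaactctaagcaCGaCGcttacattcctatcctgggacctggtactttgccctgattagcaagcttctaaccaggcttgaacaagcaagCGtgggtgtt
The GC content was 22.7% in the Rgs13 stretch and 47.3% in the Alox5 stretch. The upstream stretches were kept throughout in Il1rl1 and Meis1, and not throughout in Ston2 and Flywch2.

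Over all narrowing regions, the lost bases came to 187.3 kb and the kept bases to 1176 kb. CpG stood at 14.2 per kb in lost bases and 40.6 per kb in kept bases. The GC content was 46.9% and 53.3%. Of the 448 members with at least 100 lost bp, 416 had fewer CpG per kb in the lost than in the kept bases. The same was measured in the other promoter regions, with 11.8 CpG per kb in lost and 41.4 in kept bases, so the contrast was not particular to narrowing regions. The GATA motif stood at 1.82 per kb in lost and 1.26 per kb in kept bases of narrowing regions, and at 1.82 and 1.41 per kb in the other promoter regions. These densities are a description. In 190 of the 581 members the lost bases held at least 1 GATA motif, a count that depends on the length lost and was not made in the other promoter regions.

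The promoters themselves were also less CpG-rich around the TSS used. Any protein-coding transcript could give that TSS, so it can lie within longer transcripts, as for Ston2. The alternative of 1 TSS per gene was not run for these windows. In the 300 bases from 250 before to 50 after the TSS, the median CpG observed over expected was 0.703 in narrowing regions, 0.790 in widening regions, and 0.817 in all promoter regions. A value under 0.4, that of CpG-poor promoters, was found in 95 narrowing regions (16.4%), 55 widening regions (11.5%), and 596 of all promoter regions (6.79%). The GATA motif was in 110 of these windows (18.9%), in 23.4% of those of widening regions, and in 15.9% of all promoter windows. The KLF motif CCNCNCCC was in 71.8% against 70.5%, the AP-1 motif TGANTCA in 4.99% against 3.77%, and the ETS motif CCGGAAGT in 6.54% against 9.75% (either strand in each case). A base could count in more than 1 motif, and no test was run on these shares.

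H3K4me3 length was lower at 24 h by a median of 434.5 bp, with a range from 78 to 4367 bp. The median ratio of the 0 h to the 24 h mean was 1.22 in narrowing regions and 1.01 in all promoter regions. The median length was 2377 and 2426 bp in the 2 lists at 0 h and 1934 and 1927 bp in those at 24 h. Between these times the lists of 2 h gave 2288 and 2079 bp, those of 6 h 2159 and 2074 bp, and those of 12 h 2115 and 2140 bp. In all promoter regions the median was 2607 and 2699 bp before treatment and 2633 and 2648 bp at 24 h. At the threshold, Zfp493, Acy1, and Rnh1 were just inside, with ratios of 1.15006, 1.15016, and 1.15025. Nfe2l1, a second region of Nemp1, and Fyn were just outside, with ratios of 1.14999, 1.14999, and 1.1494.

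**Figure D1:**
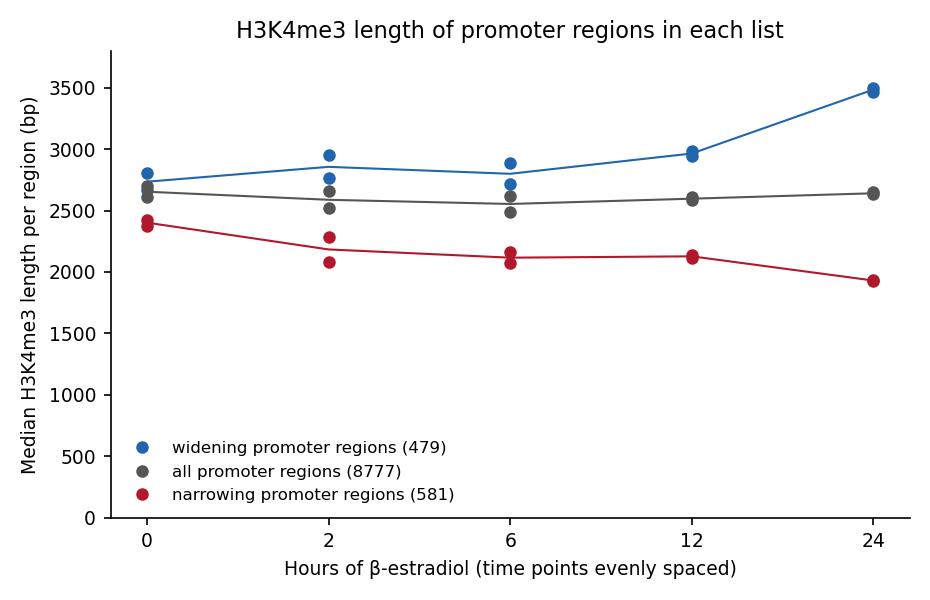
Median H3K4me3 length per region (bp, y axis) in each of the 10 lists (points) against hours of β-estradiol (x axis, evenly spaced), for narrowing, widening, and all promoter regions, with lines through the means of 2 lists. The narrowing regions go from 2377 and 2426 bp at 0 h to 1934 and 1927 bp at 24 h, which the rule fixes, and the lists at 2, 6, and 12 h lie between.

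Of the other promoter regions, 1413 had both 24 h lists below both 0 h lists but differed by less than 15%, and 75 reached the ratio but had overlapping lists. Narrowing regions held 1 peak in nearly all cases, with a mean of 1.01 peaks per region at 0 h, so the length was that of 1 peak. Their peaks also ranked lower by score. The median percentile of the best peak of a region in its own list was 44.5 to 47.2 over the 10 lists, against 65.0 to 68.8 in all promoter regions. The part of peak strength in the result was not tested.

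Of the lost bases, 97.4% lay at an edge of a peak that remained at 24 h, 1.29% in a gap between pieces, and 1.28% in a separate peak. In all promoter regions 98.5% lay at an edge, and a peak in all 10 lists, mostly 1 per region, leaves little else. In 18 members no base was covered in both 0 h lists and in neither 24 h list, and 563 had lost bases. They lay on both sides of the TSS in 240 members, downstream alone in 203, and upstream alone in 120. Of all promoter regions, 3315 had lost bases, on both sides in 479, downstream alone in 1225, and upstream alone in 1611. These counts include the narrowing regions.

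Most of the length was lost downstream of the TSS, where most of the length was. The downstream side made up 64.6% of the net loss and 63.0% of the 0 h length. Of the lost bases, 67.9% lay downstream, against 55.8% in all promoter regions, where 60.6% of the 0 h length was downstream. All promoter regions include the narrowing ones, which held 187.34 of their 403.85 kb of lost bases, so this contrast is not with a separate set. The median length downstream went from 1484.5 to 1233 bp and that upstream from 870 to 708 bp. By annotation, 64.5% of the lost bases were intronic, 19.3% exonic, and 16.2% outside genes, against 51.1%, 29.5%, and 19.4% of the kept bases. In the other promoter regions 50.9% of the lost bases were intronic and 34.1% lay outside genes. The TSS of the naming gene was covered in all 10 lists in 556 of the 581 members (95.7%). A TSS on both strands was found in 31 members (5.34%), against 12.6% of all promoter regions.

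**Figure D2:**
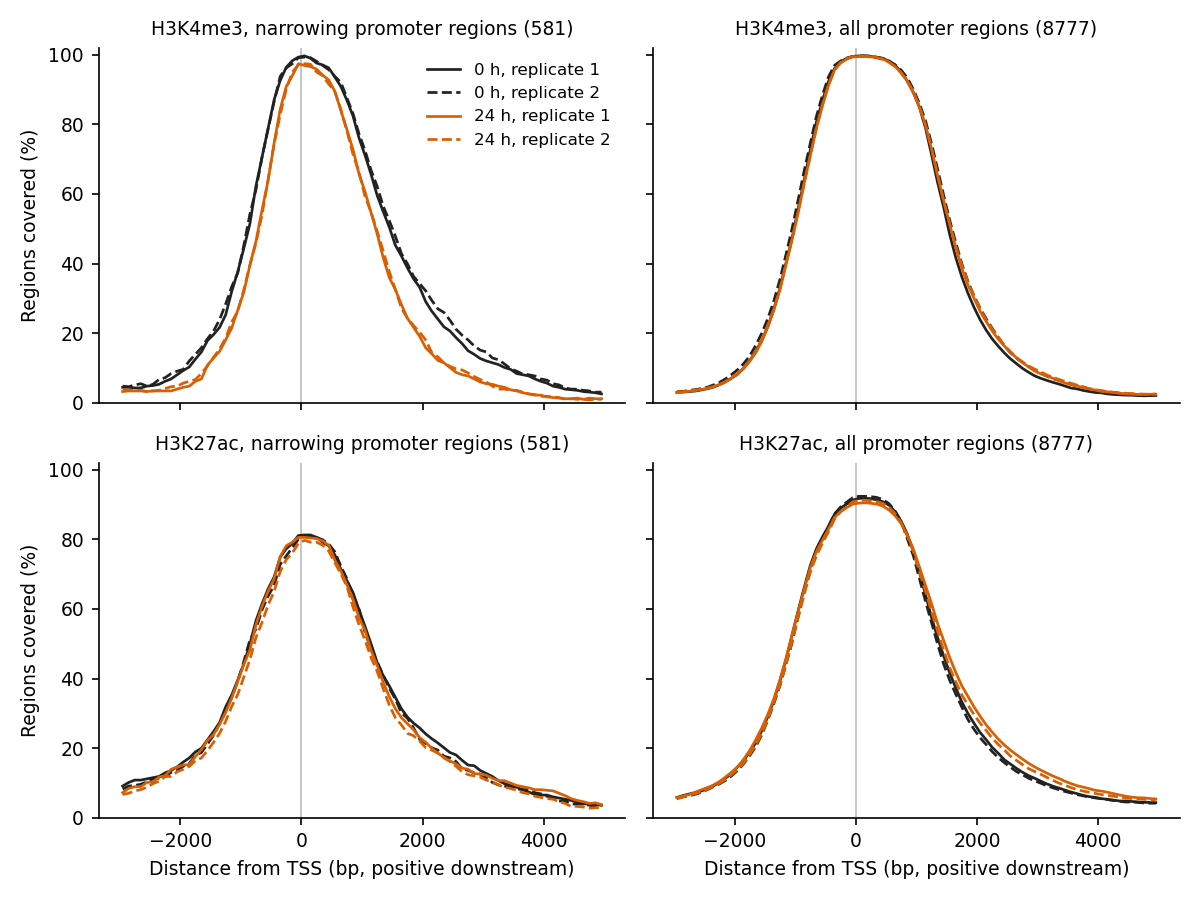
Share of regions covered by a peak (%, y axis) against distance from the TSS (bp, positive downstream, x axis) for H3K4me3 and H3K27ac in the lists at 0 h and 24 h, with a line per list. At 1550 bp downstream the mean H3K4me3 cover of narrowing regions is 46.6% at 0 h and 32.5% at 24 h, and 50.4% and 51.4% in all promoter regions, while H3K27ac of narrowing regions is at 34.3% and 30.0%.

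Of the 12 members with the largest ratio, Hif3a stood first at 3.23, with 6178 and 6472 bp before treatment and 1851 and 2065 bp after 24 h. In between, the lists of 2 h gave 5712 and 4303 bp, those of 6 h 5989 and 5545 bp, and those of 12 h 5575 and 3977 bp. The 6 lists in between all lay above those at 24 h and below those at 0 h. Of its lost bases, 4109 lay upstream of the TSS and 21 downstream. H3K27ac inside the region stayed between 6036 and 6471 bp in all 10 lists, and CTCF peaks covered 1117 bp before treatment and 1991 bp after it. A wider H3K27ac peak is cut at the ends of the region, so these values do not show that its full width was unchanged.

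Tespa1, which acts in antigen receptor signaling, covered 3477 and 3319 bp before treatment and 1386 and 1543 bp at 24 h, a ratio of 2.32. Its lists at 2, 6, and 12 h ranged from 2744 to 3546 bp, so they were close to those at 0 h. H3K27ac covered 3580 and 3650 bp before treatment and 2782 and 2122 bp at 24 h, and 0 bp in 1 list at 6 h. Rgs13 covered 2139 and 2585 bp before treatment and 912 and 1270 bp at 24 h. Its 2 lists at 6 h were 2329 and 877 bp, so the replicates themselves were far apart.

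Arhgap9 covered 6016 and 5801 bp before treatment and 3058 and 2319 bp at 24 h. Its lists in between fell into long ones (5300, 5638, and 5344 bp) and short ones (2920, 3112, and 3308 bp), 1 of each at every time. Lcp2, which encodes the adaptor SLP-76, covered 3378 and 4181 bp before treatment and 2376 and 1643 bp at 24 h. Fgf11 covered 4760 and 4406 bp before treatment and 2172 and 2069 bp at 24 h, with no bp of it downstream of the TSS at 24 h. Its lists at 2, 6, and 12 h were short in replicate 1 (1949 to 2305 bp) and long in replicate 2 (4288 to 4597 bp).

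The other 6 of the 12 were as follows. Flywch2 covered 1230 and 901 bp before treatment and 513 and 397 bp at 24 h. Pi16 covered 1454 and 1687 bp before treatment and 505 and 845 bp at 24 h. Fam129b covered 1254 and 1838 bp before treatment and 671 and 665 bp at 24 h. Fetub covered 1132 and 1218 bp before treatment and 609 and 573 bp at 24 h, and Ttc29 covered 1327 and 2250 bp and then 778 and 1095 bp. Ston2, near the median member length before treatment, covered 2329 and 2522 bp before treatment and 793 and 1536 bp at 24 h. None of these groups overlapped, as the rule requires, but the spread within Ttc29 at 0 h (SD 652.7 bp, n = 2) was near its mean loss of 852 bp.

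The members with the largest loss in bp had long H3K4me3 domains. After Hif3a and Arhgap9 (losses of 4367 and 3220 bp) came the region of Nemp1 and Nab2, with 8738 and 5759 bp before treatment and 4302 and 4277 bp at 24 h. Cmtm7 covered 4449 and 7926 bp before treatment and 3181 and 3492 bp at 24 h. Adcy7, an adenylyl cyclase of blood cells, covered 8836 and 8138 bp before treatment and 5450 and 5950 bp at 24 h. Fut8, the core fucosyltransferase, covered 7280 and 7929 bp before treatment and 4810 and 4998 bp at 24 h. Fads2, a fatty acid desaturase, covered 6214 and 6301 bp before treatment and 3698 and 3440 bp at 24 h, and the region of Wdr83os, Wdr83, and Man2b1 covered 5983 and 5802 bp and then 3182 and 3345 bp. No H3K27ac peak was listed for Cmtm7, Adcy7, and Nemp1. These are among the longest H3K4me3 regions, and whether long H3K27ac domains are missing from the lists was not tested. Rb1, the retinoblastoma gene and a region added after its values were seen, covered 5996 and 6013 bp before treatment and 3383 and 3541 bp at 24 h. Its H3K27ac stayed between 5920 and 6172 bp, which is also a length cut at the ends of the region.

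**Figure D3:**
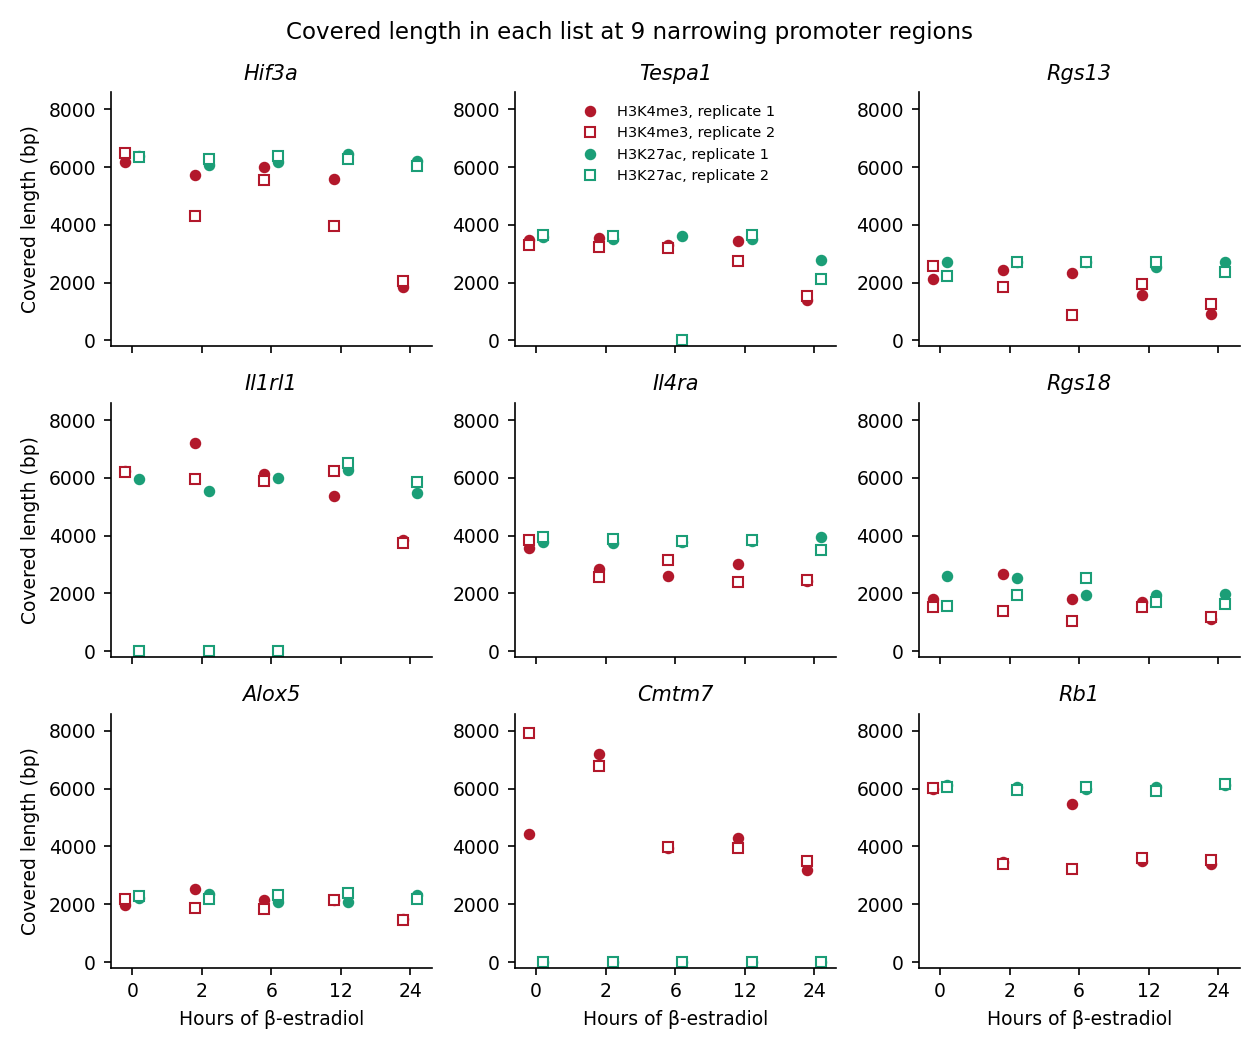
Covered length (bp, y axis) in each list (filled circles replicate 1, open squares replicate 2) for H3K4me3 and H3K27ac at 9 narrowing promoter regions against hours of β-estradiol (x axis, evenly spaced). H3K4me3 is lowest at 24 h in all 9 panels but Rgs13, Rgs18, Rb1, and Il4ra, where at least 1 list from 2 to 12 h is lower than a list at 24 h. H3K27ac is cut at the ends of the region, and within it that of Hif3a and Rb1 is nearly flat.

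Of the 31 genes in a list of mast cell and cytokine receptor genes, 10 had a promoter region with a peak in all 10 lists, and 6 of those 10 regions (60%) narrowed, 1 widened, and the median ratio was 1.49, beside 6.62%, 5.46%, and 1.01 over all promoter regions. The list was drawn up with results of these data known, and 5 of its 10 regions, 3 of them narrowing (Tespa1, Rgs13, and Il1rl1), are among the promoters that the study captured because of their expression in these cells, so it is not independent evidence of a direction. Besides Tespa1 and Rgs13 the narrowing regions were Il1rl1, Il4ra, Rgs18, and Alox5. Il1rl1 covered 6255 and 6217 bp before treatment and 3847 and 3740 bp at 24 h, with 5373 to 7198 bp in the 6 lists between, all above those at 24 h. Its H3K27ac covered 0 bp in 3 lists and from 5493 to 6532 bp in the other 7. Il4ra, the interleukin 4 receptor alpha chain, covered 3560 and 3860 bp before treatment and 2429 and 2476 bp at 24 h. Rgs18, a G protein regulator of platelets and progenitors, covered 1814 and 1542 bp and then 1106 and 1191 bp, and Alox5 covered 1971 and 2169 bp and then 1507 and 1452 bp. Rgs1 had a ratio of 2.37 but overlapping lists, with 1120 and 3950 bp before treatment and 984 and 1152 bp at 24 h, so it was not a member. Il9r was the region that widened, and Csf2rb2 and Il3ra did neither.

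Erythroid genes were on the other side. Of 45 promoter regions of the erythroid list, 0 narrowed and 21 (46.7%) widened, with a median ratio of 0.862. Of the 21, 7 are captured promoters of the study, so this list is not independent evidence either. Widening was measured, for instance, at Slc4a1, the anion exchanger band 3, with means of 2370 bp before treatment and 2963 bp at 24 h, and at Fech, ferrochelatase, with 5274 and 6786 bp.

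Of 29 listed transcription factor genes of stem and myeloid cells, 14 had a promoter region with a peak in all 10 lists. Gata2 had no such region. Over all promoter regions 6.62% narrowed and 5.46% widened. The list gave 2 narrowing regions of 16 (12.5%), Meis1 and Stat5a, and 1 widening region (6.25%). The latter was 1 of the regions of Lmo2, a partner of TAL1, with 1450 and 1308 bp before treatment and 3602 and 2935 bp after 24 h, a larger relative difference than in either narrowing region. Meis1 covered 1787 and 1690 bp before treatment and 1254 and 1475 bp at 24 h. Stat5a, which relays EPO and cytokine signals, covered 3321 and 3262 bp before treatment and 2625 and 2636 bp at 24 h. Genes of signaling feedback and the immediate early response gave 3 of 23 (13.0%), with none widening. Spry4 and Socs1, which restrain receptor signaling, had ratios of 1.44 and 1.31, and Ets2 had 3572 and 3400 bp before treatment and 2616 and 3176 bp after 24 h.

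The remaining lists were near or below the background of 6.62%. Myb, a progenitor transcription factor, was the 1 narrowing region of 26 in the proliferation list, with 6671 and 6717 bp before treatment and 5778 and 5739 bp at 24 h. Kdm5b, which removes H3K4me3, was the 1 of 21 among the writers and erasers of H3K4 methylation, with 3607 and 4564 bp before treatment and 3551 and 3414 bp at 24 h. Of the Polycomb regions, 0 of 17 narrowed. Among cytosolic ribosomal protein genes 3 of 74 narrowed (Rpl36, Rpl14, and Rps24), and among mitochondrial ones 2 of 76 (Mrpl19 and Mrpl37).

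The promoters captured in the study, picked there by expression in these cells, gave 7 narrowing (21.9%) and 12 widening (37.5%) of 32 regions. Beside these stand 6.62% and 5.46% of all promoter regions. Because of how it was picked, this list is not independent evidence of a direction. It pools the activated and the repressed promoters of the study, which were not counted apart here. The 7 were Tespa1, Rgs13, Il1rl1, Fam214b, Sept9, Tmem44, and Fgf3. Fam214b and Sept9 each held a second promoter region that did not narrow, with ratios of 0.951 and 1.01.

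**Figure D4:**
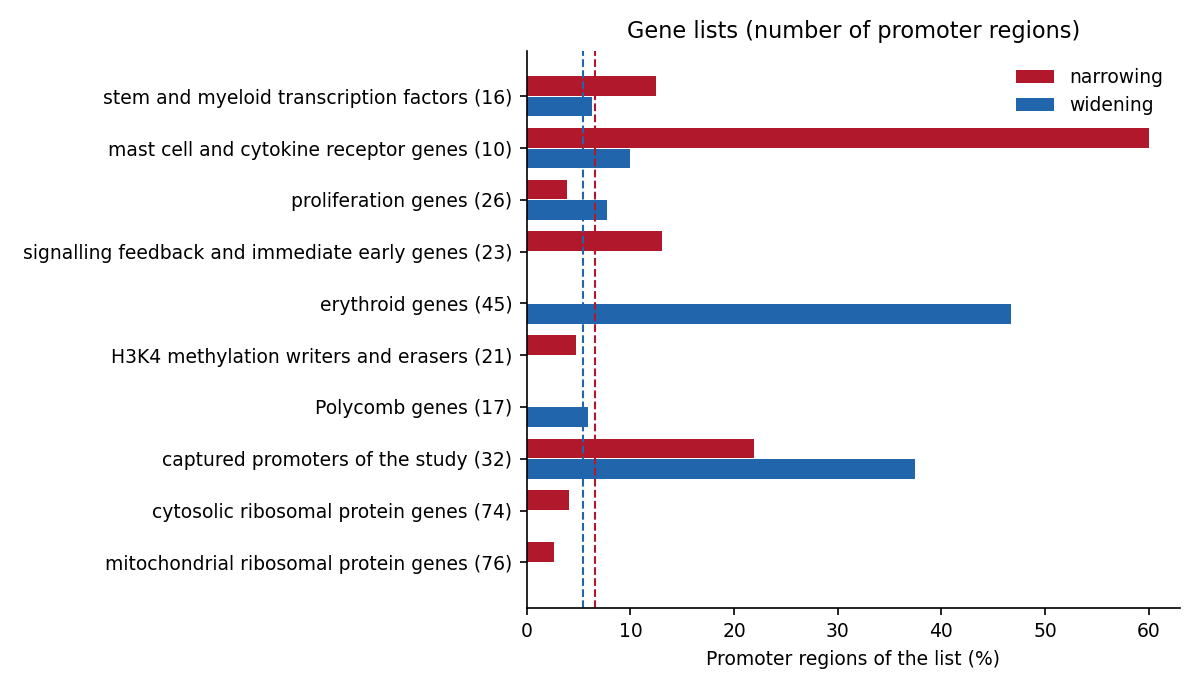
Share of the promoter regions of each gene list that narrowed or widened (%, x axis), with the number of regions in parentheses and dashed lines at the shares over all promoter regions (6.62% and 5.46%). Mast cell and cytokine receptor genes stand at 60% narrowing and erythroid genes at 0% narrowing and 46.7% widening.

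The H3K4me3 lists at 2, 6, and 12 h were not used by the rule on length. Of the lost bases, the lists of 2 h still covered 64.8% and 42.2%, those of 6 h 49.6% and 37.5%, and those of 12 h 43.4% and 38.2%. The lost bases of the other promoter regions ran a like course, with 58.0% and 36.1%, 45.7% and 33.1%, and 41.7% and 39.4%. Cover was fixed by choice at 100% before treatment and 0% at the end. The lists of these 3 times overlapped, and the pair at 2 h was the farthest apart. Per member, the median share of the 0 h to 24 h difference reached was 49.6% at 2 h, 61.3% at 6 h, and 60.5% at 12 h. A value between 0% and 100% follows in part from the choice of members at both ends. In 73 members (12.6%) the 5 time point means fell at every step. The rule sets the 0 h mean above the 24 h mean, and this count was not made over all promoter regions, so it shows no steady narrowing.

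Between 2 h and 12 h, narrowing regions more often became shorter than longer. Both 12 h lists were below both 2 h lists in 129 members (22.2%), against 14.8% of all promoter regions, and above them in 59 (10.2%), against 16.6%. In widening regions these shares were 7.10% and 33.0%. In the limma fit over 11506 regions, 1 member had a lower length at 12 h at an adjusted p under 0.05, and 0 had a higher one, against 0.00869% of all regions in either direction. At an unadjusted p under 0.05, 34 of the 581 members were lower and 8 higher. The same counts were 229 and 212 of the 11506 regions tested, and 122 and 167 of the 8777 promoter regions among them. The 1 region was Cmtm7, with 7210 and 6802 bp in the lists of 2 h and 4305 and 3933 bp in those of 12 h, a log2 difference of -0.74 (SE 0.073, limma adjusted p = 0.0376). It was not called when any 1 of the 6 lists was left out.

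**Figure D5:**
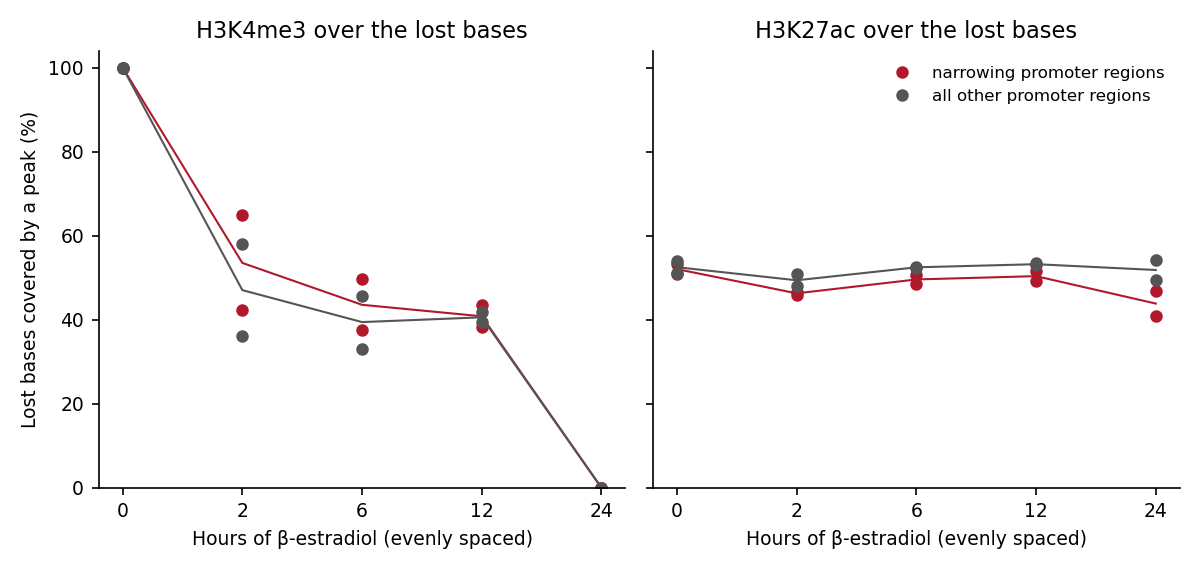
Share of the lost bases covered by a peak (%, y axis) in each list (points) against hours of β-estradiol (x axis, evenly spaced), for H3K4me3 and H3K27ac, in narrowing and in all other promoter regions. H3K4me3 is at 100% and 0% at 0 h and 24 h by definition, and H3K27ac over the lost bases of narrowing regions goes from 53.3% and 50.8% to 46.9% and 40.8%.

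H3K27ac, measured with another antibody, was found in all 10 lists in 426 members (73.3%), against 86.8% of all promoter regions, and in no list in 54 (9.29%), against 3.53%. Its length was counted inside the H3K4me3 region, so a longer peak is cut at the ends of the region. The median H3K27ac length in narrowing regions was 1923 and 1879 bp before treatment and 1899 and 1810 bp at 24 h. Over the lost bases, H3K27ac covered 53.3% and 50.8% at 0 h and 46.9% and 40.8% at 24 h, so both 24 h lists were below both 0 h lists. The lists of 2 h, at 46.0% and 46.6%, were as low as the higher of the 24 h lists, so the cover did not fall steadily with time. Over the kept bases the means were 77.8% ± 0.84 (SD, n = 2) at 0 h and 77.3% ± 1.50 at 24 h. Over the lost bases of the other promoter regions they were 52.5% ± 2.08 and 51.8% ± 3.53. With 2 lists per time, an exact permutation test cannot go below p = 0.333, and none was run.

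Both 24 h lists of H3K27ac were below both 0 h lists in 123 narrowing regions (21.2%), against 11.8% of all promoter regions, and above them in 75 (12.9%), against 26.3%. Without 0 h replicate 2 the first count was 208, against 25.5% of all promoter regions. Without 24 h replicate 1 it was 233, against 27.3%, so the background rose with it. Leaving out a list loosens the condition, so the count and the background could only stay or rise. In the limma fit, 506 of the 581 members had H3K27ac in at least 2 of its 10 lists and were tested. The length was lower at 24 h in 6 and higher in 5 at an adjusted p under 0.05, or 1.19% and 0.988%, against 0.718% and 1.23% of the 10860 regions tested. These shares are near the background. At an unadjusted p under 0.05, 52 of the 506 members were lower and 22 higher. The same counts were 410 and 949 of the 10860 regions tested, and 300 and 815 of the 8369 promoter regions among them. The difference was below 0 in 293 of the 506 (57.9%), against 39.5% of all regions tested, with a median log2 difference of -0.02. The calls depended on single lists, with 17 lower members without 24 h replicate 1 and 12 higher members without either replicate at 0 h.

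The 6 members with lower H3K27ac were Papss2, Kif1bp, Sema6b, Emc2, Flna, and Rarg. Flna, the actin crosslinker filamin A, had an H3K27ac length of 3913 and 3783 bp before treatment and 1936 and 2477 bp at 24 h, a log2 difference of -0.76 (SE 0.098, limma adjusted p = 0.0221). Kif1bp went from 2610 and 2602 bp to 1296 and 1355 bp (log2 difference -0.88, SE 0.096, limma adjusted p = 0.0119). Emc2, a subunit of the endoplasmic reticulum membrane complex, went from 2949 and 2930 bp to 1802 and 1621 bp. Rarg, the retinoic acid receptor gamma, went from 3616 and 3551 bp to 2534 and 2552 bp, and Papss2, an enzyme of sulfate activation, from 2915 and 2926 bp to 2440 and 2342 bp. The 3913 bp of Flna and 2926 bp of Papss2 were the whole region, where the count is cut. Sema6b, a transmembrane semaphorin, went from 776 and 1710 bp to 0 bp in both lists. In Flna and Emc2 the H3K4me3 ratio was also large, at 1.63 and 1.56.

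The 5 members with higher H3K27ac were Tmem44, Tmem50a, Stk3, Usp6nl, and Fancf. Tmem44 had 0 bp in both lists before treatment and 3567 and 3414 bp at 24 h, of a region of 3567 bp. Tmem50a had 0 bp in both lists before treatment and 2940 and 3001 bp at 24 h, of a region of 3001 bp. Stk3, a Hippo pathway kinase, went from 1247 and 1282 bp to 2521 and 2408 bp (log2 difference 0.86, SE 0.046, limma adjusted p = 0.000461). Fancf, of the Fanconi anemia complex, went from 3067 and 2725 bp to 4768 and 4781 bp, and Usp6nl from 1244 and 1242 bp to 1443 bp in both lists. For Usp6nl, 1443 bp is the whole region, so the 24 h lists could not differ above it. In 50 narrowing regions (8.61%), as in 6.22% of all promoter regions, H3K27ac covered at least 90% of the region in 1 list and 0 bp in another. Myb was an example, with 6947 bp in 7 lists and 0 bp in 3.

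CTCF peaks fell in 175 narrowing regions (30.1%) at 0 h and in 212 (36.5%) at 24 h. In all promoter regions the shares were 33.2% and 42.5%. The 24 h list held more CTCF peaks (41473) than the 0 h list (33193), and there was 1 list per time, so no test was possible. In 169 of the 581 narrowing regions CTCF was present at both times, in 43 at 24 h alone, and in 6 at 0 h alone. Of all 8777 promoter regions, these counts were 2764, 966, and 150. CTCF covered 5.89% of the lost bases at 0 h and 8.04% at 24 h, and 8.91% and 13.6% of the kept bases.

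Narrowing regions were spread over the chromosomes. The share of promoter regions that narrowed ranged from 3.85% on chromosome 16 to 8.20% on chromosome 7 among autosomes, and was 10.1% on X (27 of 268).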

How the data were processed

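Covered lengths were computed from the peak lists deposited for 22 ChIP-seq libraries of H3K4me3, H3K27ac, and CTCF. The authors aligned reads to mm10 with Bowtie2 and called peaks with MACS without its model step, per library. Each deposited peak carries a score, which the authors took from the caller, and scores served here for ranks and filters within lists. Positions are other deposited columns, in bp. The lists hold no counts, so depth and the precision it gives are unknown. For CTCF these steps are not stated separately, and the caller's version and threshold are not given in the sources used here. Depth and background can change a peak length.

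Groups follow the sample titles. TSSs were those of protein-coding transcripts of GENCODE M21. Covered length was tested with limma 3.58.1 (R 4.3.3, lmFit and eBayes with trend) on log2(covered bp + 200), with a mean per time point and Benjamini-Hochberg adjustment over all regions tested. H3K4me3 at 12 h against 2 h used the 6 lists at 2, 6, and 12 h and regions with a peak in all 10 lists. H3K27ac at 24 h against 0 h used its 10 lists, the bp covered inside each H3K4me3 region, and regions with H3K27ac in at least 2. A log2 difference on this scale understates changes of short lengths. The fitting step was tried on simulated lengths modeled on the 6 H3K4me3 lists, with planted differences of at least 2-fold on that scale. Smaller differences and lengths like those of H3K27ac were not simulated. Python 3.11.15, numpy 2.4.6, pandas 2.3.3, and matplotlib 3.10.9 were used.

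The members and lists were chosen with earlier results of these data known. Named members were the 12 with the largest ratio, the 8 with the largest loss in bp, those with a TSS of a listed gene (at most 6 per list by ratio, and all 7 captured promoters by name), up to 6 called in each fit and direction, and 3 regions on either side of the ratio threshold. A region is named by the gene whose TSS is nearest the middle of the part covered in all 10 lists. Alternatives were 1 TSS per gene, merging across gaps of up to 500 bp, a difference of at least 25%, keeping peaks that reach the median score of the pooled lists, the same number of best-scoring peaks per list, scaling by median peak length, pseudocounts of 50 and 1000 bp, a looser filter (a peak in 2 or more lists), other lists in the fit, a window extended by 1 kb, a replicate block, and leaving out each list. Chosen after seeing the data were the fit to regions with H3K27ac in all 10 lists and leaving out lists for the H3K27ac count without a test. Same-numbered replicates deviated together with correlations from -0.113 to 0.0394 for H3K4me3 and from -0.0437 to 0.09 for H3K27ac, so the numbers do not pair the lists.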

Additional observations from a re-analysis of the deposited data

How the results depend on the processing

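The number of narrowing regions (581 of 8777) was 509 of 8213 with 1 TSS per gene. It was 577 of 8755 with merging across gaps, and 567 of 8732 with equal numbers of peaks. It was 226 with a difference of at least 25% and 1171 with scaling by median peak length, both of 8777. With peaks that reach the pooled median (the score filter) it was 185 of 5491. With 1 list left out it was 644 to 1049. Fewer lists then have to be apart, so that part of the rule is looser by construction, while the ratio can move either way. How many regions met the reversed rule was not counted in these settings. The share of the loss downstream (64.6%) stayed between 63.8% and 65.2%. The count with H3K27ac lower in both 24 h lists (123) was 149 with the window extended by 1 kb, 81 with the score filter, 230 with scaling, and 162 to 233 with 1 list left out. The share of all promoter regions that met the same condition was 13.3%, 10.3%, 29.7%, and 19.3% to 27.3% in these settings, against 11.8%. Leaving out a list loosens this condition, so there the count and the share can only stay or rise.

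In the limma fits, the 1 member lower in H3K4me3 at 12 h was 0 with the replicate block, with the score filter, with all 10 lists in the fit, and with any 1 list left out (0 to 0). No alternative gave a higher member. For H3K27ac, the 6 lower members were 4 with the replicate block, 12 with the 4 lists at 0 h and 24 h alone, 3 with the extended window, and 4 to 17 with 1 list left out. The 5 higher members were 4 with the replicate block, 3 with the score filter, 3 with H3K27ac in all 10 lists, and 4 to 12 with 1 list left out. Where an arm was left with 1 list, it was assumed to vary like the others. The cause of the other shifts was not tested. The lists hold no depth, and 2 lists per time limit the precision.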
